A study of Mus musculus with 6 samples.

Results

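The 32 genes described here encode actins, the proteins that bind and cross-link actin filaments, and serum response factor (SRF) with its coactivators. They were taken as a list of gene symbols, 32 of the 24062 genes with a row in the count tables. Of these, 31 passed the filter on low counts and were tested among 13185 genes, and each of the 31 lay above the filter's level of 0.864 CPM in all 6 libraries (CPM, read counts scaled to a common library size). The exception was Fhl1. The RNA came from NIH3T3, an established line of mouse embryonic fibroblasts, grown here with donor bovine serum. All cells were transfected for 48 h with either SPT6 siRNA or a negative control siRNA. SPT6 (gene symbol Supt6) is a histone chaperone and elongation factor of RNA polymerase II, and the study asks how it bears on transcription after interferon beta (IFN-beta). The groups were SPT6 siRNA with IFN-beta at 100 units/ml for 4 h (2 libraries), control siRNA with the same IFN-beta treatment (2 libraries), SPT6 siRNA untreated (1 library) and control siRNA untreated (1 library). Titles place the untreated libraries at 0 h, so 4 h of further culture and IFN-beta cannot be told apart. Whether the replicates were separate cultures is not stated, and p-values then cover only the library-to-library spread, which could be technical.

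As background, SRF binds CArG boxes in the promoters of many genes of the actin cytoskeleton. Its coactivators, the myocardin-related transcription factors (Mkl1 and Mkl2 in the deposited tables, Mrtfa and Mrtfb in later annotation), bind monomeric actin and are held in the cytoplasm by it. Polymerisation of actin frees them to enter the nucleus and act with SRF. In fibroblasts this circuit is known for the response to serum and to mechanical load and for the contractile genes of myofibroblasts, of which Acta2 is the usual marker. A second class of SRF targets, the immediate early genes, is driven by SRF with ternary complex factors instead.

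Between 7935961 and 17596498 counts per library fell in genes, and the SPT6 siRNA library was the shallower one of each pair. Supt6 itself, the check on the siRNA labels, stood at 108 and 88.4 CPM with SPT6 siRNA and IFN-beta, against 177 and 189 CPM with control siRNA and IFN-beta. In untreated cells it stood at 101 CPM with SPT6 siRNA and 175 CPM with control siRNA. All SPT6 siRNA libraries therefore lay below all control libraries, although the difference with IFN-beta was not called across all genes (log2 difference -0.90 ± 0.18 SE, edgeR adjusted p = 0.247). Fibroblast markers were abundant: the 7 genes of that list summed to 11989.8 to 17598.5 CPM. Endothelial markers summed to at most 3.16 CPM and epithelial markers to at most 0.957 CPM (Epcam at 0). Striated muscle markers (Myod1 and Actc1 at 0) summed in untreated cells to 0.959 CPM with SPT6 siRNA and 1.23 CPM with control siRNA. With IFN-beta, replicates 1 and 2, they summed to 3.77 and 13.3 CPM with SPT6 siRNA and 5.80 and 15.9 CPM with control siRNA.

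Promoter sequences of members are shown first because the CArG box is what SRF recognises. RefSeq windows of build GRCm38.p6, reaching from 250 bases before to 50 bases after a gene's start, were held for 28 of the 32 members. Actb, Actg2, Tagln and Tgfb1i1 had none. Windows were searched for the CArG box on both strands, once exactly and once allowing 1 base to depart from it. The exact box was found in 8 of the 28 members (28.57%), namely Actg1, Cnn2, Myl9, Vcl, Fhl1, Fhl2, Filip1l and Srf, against 1.81% of the 27025 genes in the table. The exact box or one that is 1 base off was found in 14 members (50%), against 23.75% of the 27025 genes. The list was drawn up as actin cytoskeleton genes and SRF targets, so these shares describe the list and do not test it. A match describes these letters and is not a measured site. The stretches below run 5′ to 3′ on the gene's strand, capitals mark the boxes, and positions count back from the RefSeq start. For Srf (chr17:46556167-46556269, minus strand) the stretch holds exact boxes at -82 to -73 and -62 to -53 and a box 1 base off at -39 to -30. For Acta2 (chr19:34255374-34255482, minus strand) it holds boxes 1 base off at -84 to -75 and -34 to -25. For Myl9 (chr2:156775278-156775399, plus strand) it holds an exact box at -161 to -152 and one 1 base off at -99 to -90. Actg1 (chr11:120348551-120348610, minus strand), Cnn2 (chr10:79988519-79988578, plus strand) and Vcl (chr14:20929148-20929205, plus strand) each hold 1 exact box.
Srf: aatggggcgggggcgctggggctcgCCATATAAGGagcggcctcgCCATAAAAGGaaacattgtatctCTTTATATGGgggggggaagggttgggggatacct
Acta2: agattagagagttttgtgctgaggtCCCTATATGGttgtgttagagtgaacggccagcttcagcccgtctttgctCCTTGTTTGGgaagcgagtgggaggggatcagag
Myl9: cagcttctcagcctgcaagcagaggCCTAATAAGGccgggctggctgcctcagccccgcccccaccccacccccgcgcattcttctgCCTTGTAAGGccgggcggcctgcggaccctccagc
Actg1: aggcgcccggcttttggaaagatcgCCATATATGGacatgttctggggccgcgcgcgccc
Cnn2: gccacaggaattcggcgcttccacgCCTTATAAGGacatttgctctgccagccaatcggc
Vcl: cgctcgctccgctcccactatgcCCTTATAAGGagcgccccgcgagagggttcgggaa

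Levels were compared between genes as CPM per kilobase of exon. Actb, cytoplasmic beta-actin, was the highest member in each of the 6 libraries (1674 to 2790 CPM per kilobase), and Actg1, cytoplasmic gamma-actin, was second in each (749 to 1724 CPM per kilobase). Below a gap came Tpm4 (289 to 545 CPM per kilobase), Flna (240 to 402 CPM per kilobase) and Acta2 (104 to 597 CPM per kilobase). Ordered by their level in untreated control cells, all members from Tpm4 down to Srf overlapped with their neighbours in range over libraries. Acta2 took places from the third to the eighth. Srf (15.7 to 38.4 CPM per kilobase) lay above Mkl1 (5.35 to 12.6 CPM per kilobase) and Mkl2 (7.998 to 12.7 CPM per kilobase) in every library. The smooth muscle genes Actg2 (0.693 to 7.93 CPM per kilobase) and Cnn1 (0.526 to 2.61 CPM per kilobase) were near the bottom, and Fhl1 was last with 0 to 6 counts per library. All members together took 2.02% and 2.09% of the counts in genes with SPT6 siRNA and IFN-beta and 2.89% and 2.52% with control siRNA and IFN-beta. In untreated cells they took 1.72% with SPT6 siRNA and 1.70% with control siRNA, so the untreated pair was close and the control IFN-beta libraries stood above the other 4.

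**Figure D1:**
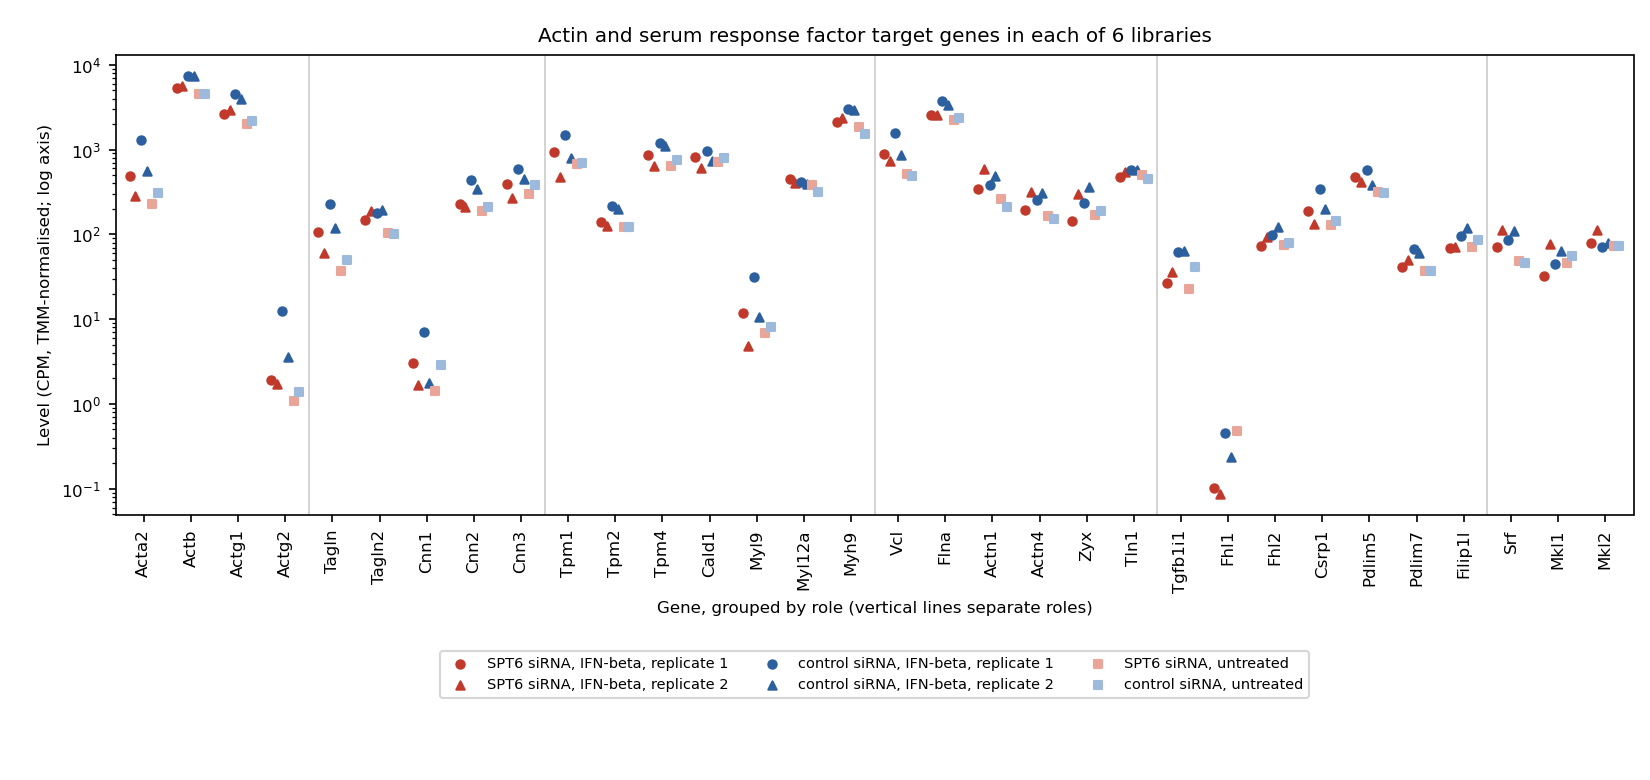
TMM-normalised level (CPM, log axis) of the 32 genes in each library, grouped by role; circles and triangles are IFN-beta replicates 1 and 2, squares the untreated libraries, and the Fhl1 library with 0 counts is not drawn. For 17 genes both control siRNA libraries with IFN-beta, in dark blue, are the 2 highest points.

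With IFN-beta, most members lay lower with SPT6 siRNA than with control siRNA, and none passed the test across all genes. The fitted log2 difference was below 0 for 27 of the 31 tested members (52% of all genes tested were below 0), with a median of -0.49 against -0.02 for all genes. By role the median was -0.96 for the 4 actins, -0.87 for the 5 calponins and transgelins, -0.61 for the 7 tropomyosin, caldesmon and myosin genes, -0.55 for the 6 LIM domain and adaptor genes, -0.32 for the 6 cross-linker and focal adhesion genes and 0.02 for Srf and its coactivators. For 17 members both SPT6 siRNA libraries were below both control libraries (21.3% of all genes tested), and for none were both above (22.7% of all genes). The same 17 members had the 2 control IFN-beta libraries as the highest of all 6, a pattern found in 8.22% of all genes. The edgeR quasi-likelihood test with Benjamini-Hochberg adjustment called 0 members, and 0% of all genes. At an unadjusted p under 0.05 it gave 12 members lower (4.31% of all genes) and 0 higher (7.36% of all genes). DESeq2 called 1 member, Cnn2 (adjusted p = 0.0393), among 62 genes in all, and limma-voom called 0.

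Marker lists also differed between the siRNAs, with IFN-beta and in the untreated pair. Of the 5 smooth muscle markers, Myocd had at most 1 count in any library. The 5 together summed to 45.1 and 58.1 CPM with SPT6 siRNA and IFN-beta and to 84.5 and 84.8 CPM with control siRNA and IFN-beta. Most of that was Smtn, which encodes the actin-associated protein smoothelin, at 39.1 and 55.2 CPM with SPT6 siRNA and 72.0 and 80.4 CPM with control siRNA. The 7 fibroblast markers summed to 11992 and 11989.8 CPM with SPT6 siRNA and to 17598.5 and 15879 CPM with control siRNA. Macrophage markers (4 of 5 in the tables) ran the other way, at 14.2 and 18.3 CPM with SPT6 siRNA and 7.83 and 7.36 CPM with control siRNA. In untreated cells the smooth muscle sum was 56.1 CPM with SPT6 siRNA and 80.6 CPM with control siRNA, the fibroblast sum 12694.5 and 16341.8 CPM, and the macrophage sum 13.5 and 10.2 CPM in the same order. The part of the marker lists in the members' differences was not tested. In bulk RNA, fewer cells with a transcript and less of it per cell cannot be told apart.

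Among the actins, the smooth muscle isoforms stood furthest apart. Acta2 (chromosome 19, 34241090 to 34255590, minus strand, GRCm38), alpha smooth muscle actin, stood at 485 and 280 CPM with SPT6 siRNA and IFN-beta and at 1311 and 563 CPM with control siRNA and IFN-beta. Its groups did not overlap, but replicate 1 was far above replicate 2 with both siRNAs. The fitted log2 difference was -1.29 ± 0.47 SE (edgeR adjusted p = 0.393). Actg2, gamma smooth muscle actin, was measured from few reads: 19 and 20 counts with SPT6 siRNA and 164 and 61 counts with control siRNA. Its log2 difference was -2.11 ± 0.63 SE (edgeR adjusted p = 0.356), with the lead of the control group mostly in replicate 1. The cytoplasmic isoforms differed less on the log scale and varied less between replicates. Actb had 5357 and 5642 CPM with SPT6 siRNA and 7474 and 7310 CPM with control siRNA (log2 difference -0.43 ± 0.24 SE, edgeR adjusted p = 0.522). Actg1 had 2604 and 2909 CPM with SPT6 siRNA and 4582 and 3988 CPM with control siRNA (-0.64 ± 0.23 SE, edgeR adjusted p = 0.383). Acta2 made up 6.90% and 3.83% of the summed actin level per kilobase with SPT6 siRNA and IFN-beta, against 11.7% and 5.72% with control siRNA and IFN-beta. In untreated cells that share was 4.12% with SPT6 siRNA and 5.32% with control siRNA. The Actg1 values are uncertain, since 45.62% of its 50-base stretches also occur in other annotated genes, most of them in Gm12715. For Actb that share was 12.25% and for Acta2 0.33%.

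Calponins and transgelins, small proteins that bind along actin filaments, were below 0 in all 5 cases. Cnn2 had the clearest separation of the family, at 225 and 209 CPM with SPT6 siRNA and IFN-beta and 443 and 348 CPM with control siRNA and IFN-beta. Its log2 difference was -0.87 ± 0.19 SE (edgeR adjusted p = 0.296). Cnn3 stood at 390 and 269 CPM with SPT6 siRNA and 590 and 445 CPM with control siRNA (-0.65 ± 0.25 SE). Its values are uncertain, since 26.04% of its 50-base stretches also occur in other annotated genes. Gm42928, on the opposite strand, covers 17.71% of the Cnn3 exon bases. Tagln, the smooth muscle marker transgelin, stood at 107 and 61.0 CPM with SPT6 siRNA and 229 and 118 CPM with control siRNA. The groups did not overlap, but the higher SPT6 siRNA library was close to the lower control library (-1.05 ± 0.41 SE, edgeR adjusted p = 0.411). An antisense gene, Gm48529, covers 62.42% of the annotated exon bases of Tagln on the opposite strand, and the strand setting of the counting is not given in the sources used here. Tagln2, the transgelin of non-muscle cells, hardly differed between siRNAs, at 149 and 188 CPM with SPT6 siRNA and 179 and 196 CPM with control siRNA (-0.15 ± 0.18 SE). Cnn1, the smooth muscle calponin, lay at 3.06 and 1.65 CPM with SPT6 siRNA and 7.15 and 1.78 CPM with control siRNA. Its difference of -0.92 ± 0.71 SE rested on 1 library: without control IFN-beta replicate 1 it was 0.40.

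Tropomyosins, which stabilise actin filaments, lay lower as a family, while a myosin light chain gene did not. Tpm2 had tight replicates, at 140 and 125 CPM with SPT6 siRNA and IFN-beta and 214 and 201 CPM with control siRNA and IFN-beta (log2 difference -0.64 ± 0.16 SE, edgeR adjusted p = 0.316). Tpm4, the most abundant tropomyosin per length, had 854 and 649 CPM with SPT6 siRNA and 1201 and 1094 CPM with control siRNA (-0.61 ± 0.22 SE). It shares 16.07% of its 50-base stretches with other genes, most of them with Gm7809. Tpm1 had 927 and 479 CPM with SPT6 siRNA and 1469 and 797 CPM with control siRNA. Its groups overlapped because the replicates differed more than the siRNAs (-0.69 ± 0.42 SE). Among 3 tropomyosins, Tpm1 made up 24.7% and 17.96% of the summed level per kilobase with SPT6 siRNA and 26.8% and 17.86% with control siRNA, which followed the replicate number and not the siRNA. Caldesmon (Cald1), which restrains myosin on actin, had 824 and 610 CPM with SPT6 siRNA and 949 and 738 CPM with control siRNA (-0.23 ± 0.24 SE). Myl9, a regulatory myosin light chain of contractile cells, had 11.7 and 4.78 CPM with SPT6 siRNA and 31.5 and 10.6 CPM with control siRNA (-1.35 ± 0.66 SE), and its groups overlapped. The other regulatory light chain among the members, Myl12a, had 444 and 401 CPM with SPT6 siRNA and 411 and 394 CPM with control siRNA (0.07 ± 0.17 SE). It shares 24.51% of its 50-base stretches with other genes, most of them with its neighbour Myl12b. Myh9, the heavy chain of non-muscle myosin, had 2120 and 2379 CPM with SPT6 siRNA and 2974 and 2897 CPM with control siRNA (-0.38 ± 0.22 SE), with no overlap.

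The cross-linker and focal adhesion genes were mixed. Flna, filamin A, which joins actin filaments into networks, had 2576 and 2551 CPM with SPT6 siRNA and IFN-beta and 3774 and 3396 CPM with control siRNA and IFN-beta (log2 difference -0.48 ± 0.22 SE). Tln1, talin, which links integrins to actin, had 470 and 538 CPM with SPT6 siRNA and 576 and 573 CPM with control siRNA (-0.19 ± 0.18 SE). In both genes the groups were apart, by little for Tln1. Vcl, vinculin, which strengthens that link, had 887 and 743 CPM with SPT6 siRNA and 1563 and 868 CPM with control siRNA (-0.58 ± 0.31 SE). Its control group was pulled up by replicate 1, and 25.52% of its exon bases overlap Ap3m1 on the opposite strand. The alpha-actinins, which cross-link filaments and anchor them at adhesions, showed no separation. Actn1 had 341 and 587 CPM with SPT6 siRNA and 381 and 484 CPM with control siRNA (0.10 ± 0.29 SE). Actn4 had 195 and 316 CPM with SPT6 siRNA and 255.3 and 309 CPM with control siRNA (-0.14 ± 0.26 SE). Zyx, the mechanosensitive adhesion protein zyxin, had 143 and 296 CPM with SPT6 siRNA and 236 and 366 CPM with control siRNA (-0.45 ± 0.39 SE). In these 3 genes replicate 2 was the higher library with both siRNAs.

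Of the LIM domain and adaptor genes, Tgfb1i1 had the smallest p of all members. It encodes Hic-5, a relative of paxillin found at focal adhesions, and stood at 26.9 and 36.2 CPM with SPT6 siRNA and IFN-beta against 61.3 and 63.0 CPM with control siRNA and IFN-beta. Its log2 difference was -0.98 ± 0.21 SE (edgeR adjusted p = 0.291), and it was one of 2 members beyond 1.5-fold in untreated cells as well. Csrp1, a LIM protein of the actin cytoskeleton, had 189 and 132 CPM with SPT6 siRNA and 345 and 199 CPM with control siRNA (-0.76 ± 0.31 SE). Filip1l, a homologue of a filamin-interacting protein, had 68.9 and 70.7 CPM with SPT6 siRNA and 96.5 and 118 CPM with control siRNA (-0.62 ± 0.18 SE, edgeR adjusted p = 0.349). Neither gene's groups overlapped. Pdlim7, which couples PDZ and LIM domains at actin fibres, had 41.3 and 50.01 CPM with SPT6 siRNA and 66.9 and 61.1 CPM with control siRNA (-0.49 ± 0.19 SE). Fhl2, a LIM-only protein that is itself known as an SRF target and partner, had 72.9 and 92.03 CPM with SPT6 siRNA and 99.4 and 124 CPM with control siRNA (-0.44 ± 0.20 SE). Pdlim5, a relative of Pdlim7, overlapped, at 470 and 412 CPM with SPT6 siRNA and 569 and 386 CPM with control siRNA (-0.11 ± 0.23 SE). Fhl1 had 1 and 1 counts with SPT6 siRNA and 6 and 4 counts with control siRNA, and in untreated cells 4 counts with SPT6 siRNA and 0 with control siRNA, too few to compare.

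Srf and its coactivators lay between -0.10 and 0.35. Srf had 70.9 and 111 CPM with SPT6 siRNA and IFN-beta and 85.8 and 110 CPM with control siRNA and IFN-beta (log2 difference -0.10 ± 0.26 SE). Mkl1 had 32.7 and 77.3 CPM with SPT6 siRNA and 44.6 and 64.2 CPM with control siRNA (0.02 ± 0.43 SE). Mkl2 had 79.6 and 114 CPM with SPT6 siRNA and 71.9 and 79.9 CPM with control siRNA (0.35 ± 0.22 SE). All 3 overlapped between siRNAs and were higher in replicate 2 than in replicate 1 with either siRNA.

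In untreated cells, compared as 1 library against 1 and therefore without a test, the member median lay near that of all genes. The median log2 difference was -0.07 for members and -0.02 for all genes. Below 0 lay 22 of 31 members (52.3% of all genes). Beyond 1.5-fold lay 2 members on the lower side (6.32% of all genes) and 0 on the higher side (8.6% of all genes). These were Tgfb1i1, at 22.7 CPM with SPT6 siRNA and 41.1 CPM with control siRNA, and Cnn1, at 1.44 CPM with SPT6 siRNA and 2.88 CPM with control siRNA. The abundant actins were level: Actb had 4485 CPM with SPT6 siRNA and 4514 CPM with control siRNA, and Actg1 had 1990 CPM with SPT6 siRNA and 2187 CPM with control siRNA. Acta2 had 229 CPM with SPT6 siRNA and 309 CPM with control siRNA. Matched by replicate number, the median log2 difference of members was -0.55 in IFN-beta replicate 1 and -0.37 in IFN-beta replicate 2. Over the untreated pair and both IFN-beta pairs, 20 members were lower with SPT6 siRNA in all 3 (28.4% of all genes) and 1, Myl12a, was higher in all 3 (25.8% of all genes). Tgfb1i1 differed by -0.85 in the untreated pair and by -1.18 and -0.80 in the IFN-beta pairs.

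**Figure D2:**
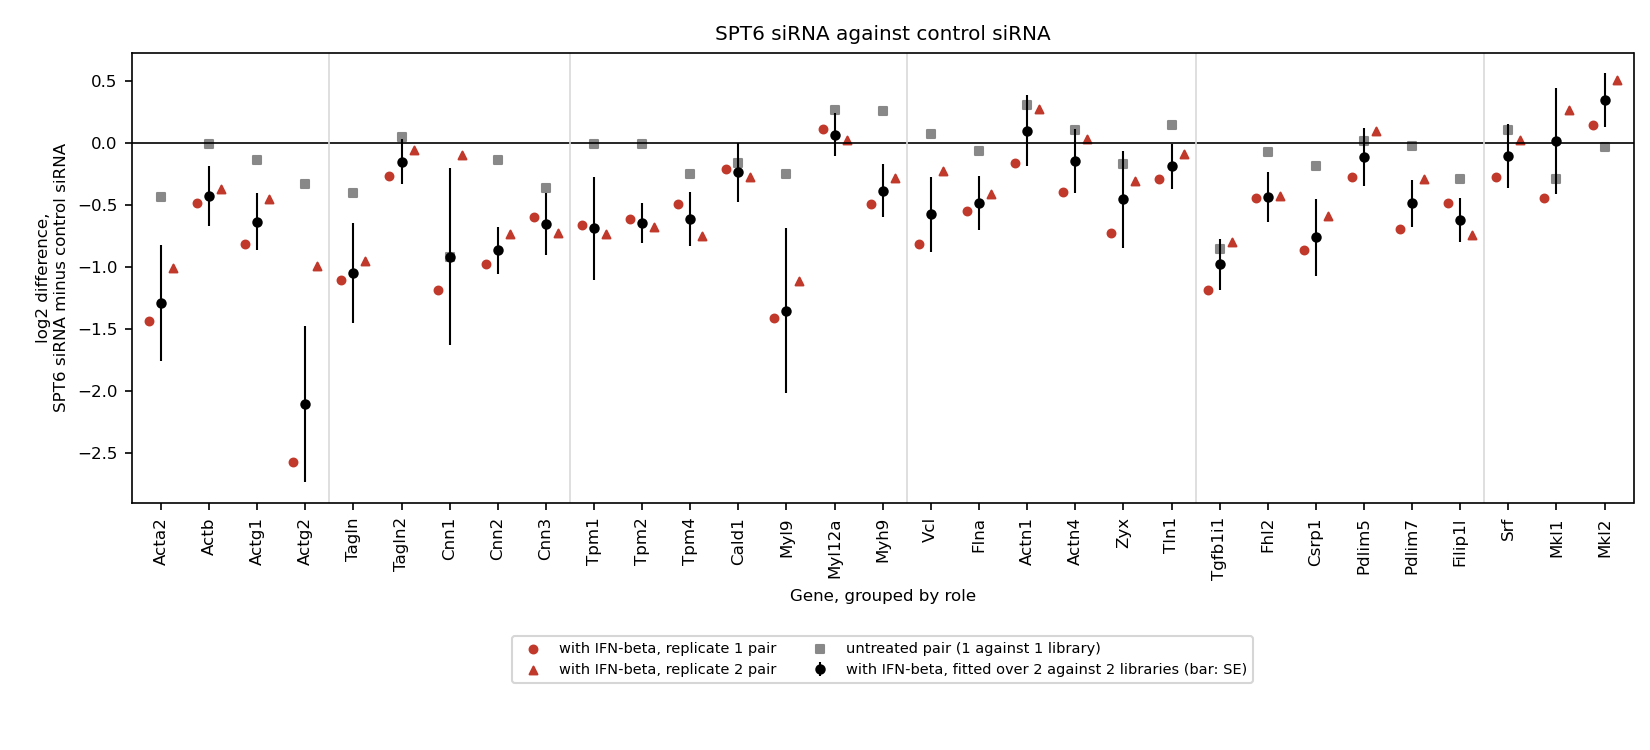
Log2 difference of SPT6 siRNA minus control siRNA for the 31 tested genes, grouped by role: black points are the fitted difference with IFN-beta (bars, SE; 2 against 2 libraries), red points the 2 pairs matched by replicate number, grey squares the untreated pair. Actg2 (-2.11), Myl9 (-1.35) and Acta2 (-1.29) lie lowest, Srf, Mkl1 and Mkl2 lie around 0, and most grey squares sit nearer 0 than the red points.

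Against untreated cells, the control siRNA libraries with IFN-beta had higher levels of nearly all members. For 27 of 31 members both IFN-beta libraries were above the untreated one (35.2% of all genes tested), and for none were both below (38.1% of all genes). The median log2 difference was 0.72 for members and -0.01 for all genes, and 1 member, Mkl1, was below 0 (50.6% of all genes). The edgeR test called 0 members (0.137% of all genes were called higher and 0% lower). At an unadjusted p under 0.05, 13 members were higher (5.29% of all genes) and 0 lower (2.94% of all genes). DESeq2 called 4 members higher among 204 genes in all. These were Actg1, Tagln, Myh9 and Vcl, with DESeq2 adjusted p-values of 0.0133, 0.0034, 0.0132 and 0.0151. With limma-voom 0 members were called. The untreated arm is 1 library, which the fit assumes to vary like the IFN-beta groups.

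Actg2, Tagln and Acta2 had the widest differences of the members. Acta2 was at 1311 and 563 CPM with IFN-beta and 309 CPM untreated (log2 difference 1.60 ± 0.61 SE, edgeR adjusted p = 0.596). Tagln was at 229 and 118 CPM with IFN-beta and 49.6 CPM untreated (1.81 ± 0.54 SE, edgeR adjusted p = 0.495). Actg2 had 164 and 61 counts with IFN-beta and 17 counts untreated (2.50 ± 0.84 SE). Replicate 1 carried the larger part of each of these. Cnn1 did not go with them, at 7.15 and 1.78 CPM with IFN-beta and 2.88 CPM untreated (0.62 ± 0.87 SE), and the smooth muscle markers summed to 84.5 and 84.8 CPM with IFN-beta and 80.6 CPM untreated. More even between replicates were Actg1, at 4582 and 3988 CPM with IFN-beta and 2187 CPM untreated (0.97 ± 0.29 SE), and Myh9, at 2974 and 2897 CPM with IFN-beta and 1530 CPM untreated (0.94 ± 0.28 SE). Tagln2 had the smallest p of the members, at 179 and 196 CPM with IFN-beta and 101 CPM untreated (0.89 ± 0.23 SE, edgeR adjusted p = 0.410). Vcl was at 1563 and 868 CPM with IFN-beta and 490 CPM untreated (1.31 ± 0.40 SE). The transcription factor gene was among the higher ones: Srf was at 85.8 and 110 CPM with IFN-beta and 45.5 CPM untreated (1.10 ± 0.33 SE, edgeR adjusted p = 0.470). Its coactivators lay near 0, with Mkl1 at -0.04 ± 0.52 SE and Mkl2 at 0.04 ± 0.27 SE. Caldesmon was level too (0.08 ± 0.29 SE), with 949 and 738 CPM with IFN-beta and 800 CPM untreated.

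With SPT6 siRNA the same comparison had a lower median, and fewer members had both IFN-beta libraries above the untreated one. Both IFN-beta libraries were above the untreated one for 22 of 31 members (34.5% of all genes) and both below for 1, Filip1l (34.6% of all genes). The median log2 difference was 0.31 for members and 0.00 for all genes, and 2 members, Cald1 and Filip1l, were just below 0 (49.3% of all genes). The edgeR test called 0 members (0.0455% of all genes were called higher and 0% lower), and at an unadjusted p under 0.05 only Tagln2 and Srf were higher (2 members, against 3.84% of all genes) and none lower (2.01% of all genes). DESeq2 and limma-voom called 0 members each. Srf was at 70.9 and 111 CPM with IFN-beta and 49.0 CPM untreated (0.89 ± 0.33 SE, edgeR adjusted p = 0.813). Tagln2 was at 149 and 188 CPM with IFN-beta and 105 CPM untreated (0.68 ± 0.23 SE, edgeR adjusted p = 0.798). For both, the value with SPT6 siRNA was within 1 standard error of that with control siRNA. Actn1 was similar, at 341 and 587 CPM with IFN-beta and 260 CPM untreated (0.84 ± 0.37 SE), beside 1.05 ± 0.37 SE with control siRNA. For Acta2 the values were 485 and 280 CPM with IFN-beta and 229 CPM untreated, a log2 difference of 0.74 ± 0.59 SE beside 1.60 ± 0.61 SE with control siRNA. For Cnn2 they were 225 and 209 CPM with IFN-beta and 190 CPM untreated, 0.19 ± 0.24 SE beside 0.92 ± 0.24 SE. For Tpm2 they were 140 and 125 CPM with IFN-beta and 121 CPM untreated, 0.13 ± 0.20 SE beside 0.77 ± 0.20 SE.

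The difference between the 2 responses, SPT6 siRNA minus control siRNA, was tested directly and called no member. It was below 0 for 28 of 31 members (51% of all genes), with a median of -0.36 for members and -0.01 for all genes. The edgeR test called 0% of all genes, and 0 members had an unadjusted p under 0.05 (0.296% of all genes higher and 0.0834% lower). DESeq2 and limma-voom called 0 members each. The smallest p was that of Tpm2 (-0.64 ± 0.28 SE, edgeR adjusted p = 0.9999), followed by Cnn2 (-0.73 ± 0.33 SE). The 3 members above 0 were Cnn1 (0.08 ± 1.29 SE), Mkl1 (0.31 ± 0.74 SE) and Mkl2 (0.38 ± 0.38 SE). For single genes the standard errors of this difference ran from 0.28 to 1.29. On simulated data this test recovered 4.08% of 2-fold and 52% of 4-fold changes, so the lack of calls says little. The siRNA comparison with IFN-beta, the control response and the difference of responses all use the same 2 control IFN-beta libraries and are not independent of each other.

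**Figure D3:**
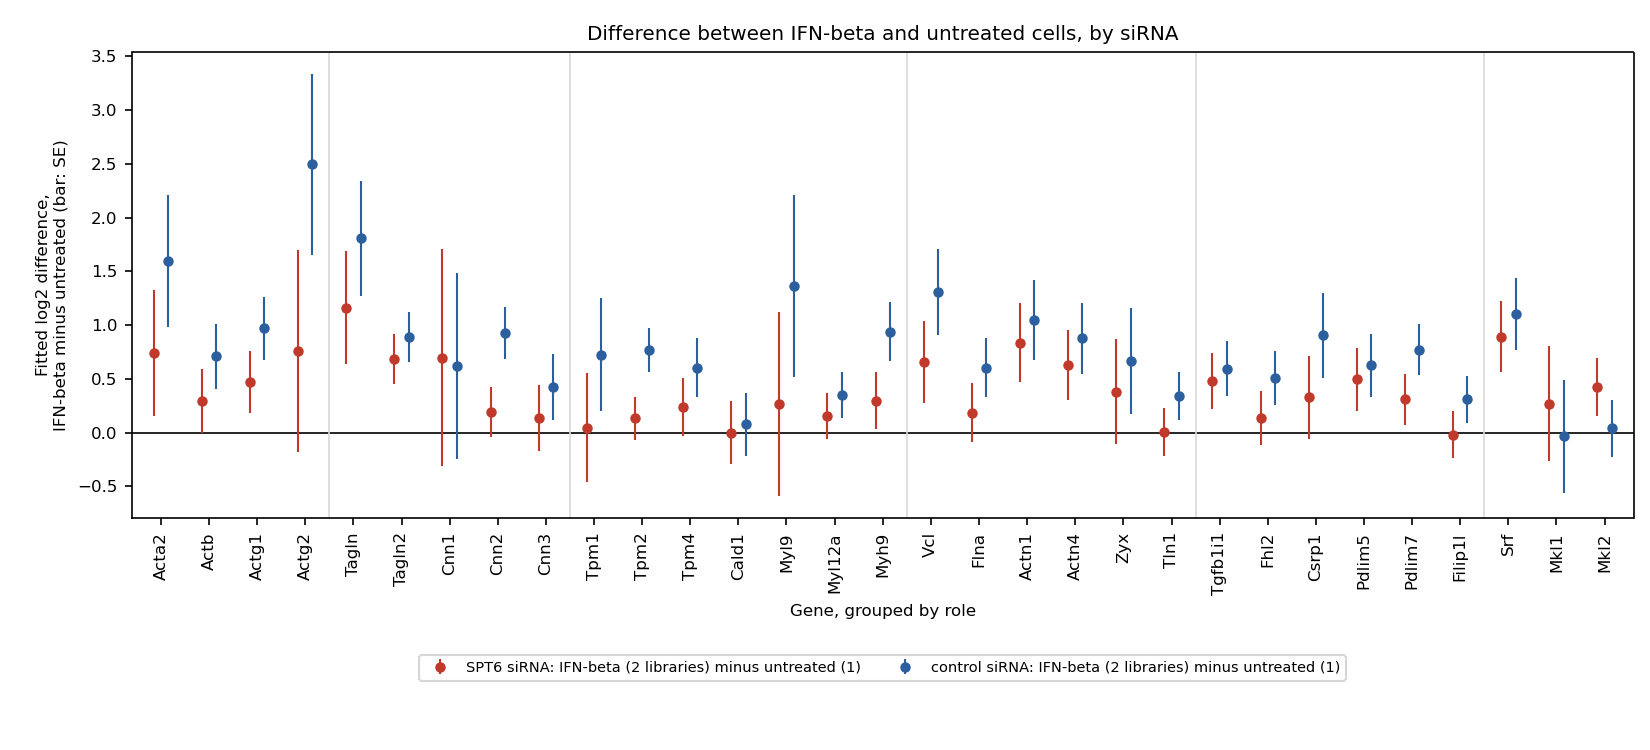
Fitted log2 difference of IFN-beta (2 libraries) minus untreated (1 library) for the 31 tested genes, with SPT6 siRNA in red and control siRNA in blue; bars are SE. The blue points lie above the red ones for most genes (Acta2 at 1.60 beside 0.74, Cnn2 at 0.92 beside 0.19), with bars that often overlap, and the pairs are close for Srf, Tagln2 and Actn1.

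Members also differed between the replicates of 1 group. In 26 of 31 members the difference of replicate 2 minus replicate 1 had the same sign with SPT6 siRNA and with control siRNA (68.1% of all genes). Among the members lower in replicate 2 were smooth muscle genes. Acta2 differed by -0.79 with SPT6 siRNA and -1.22 with control siRNA on the log2 scale. Myl9 differed by -1.26 with SPT6 siRNA and -1.56 with control siRNA, and Tagln by -0.81 with SPT6 siRNA and -0.96 with control siRNA. Cnn1, Tpm1 and Csrp1 were also lower by more than 0.5 with both siRNAs. Other members were higher in replicate 2. Zyx differed by 1.05 with SPT6 siRNA and 0.63 with control siRNA, and Mkl1 by 1.24 with SPT6 siRNA and 0.53 with control siRNA. Actn1, Srf and Fhl2 were higher in replicate 2 by more than 0.3 with both siRNAs. For Acta2 the gap between control replicates, 1311 and 563 CPM, was nearly as wide on the log scale as that between siRNAs. These 0.5 and 0.3 limits were chosen after the values were seen.

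**Figure D4:**
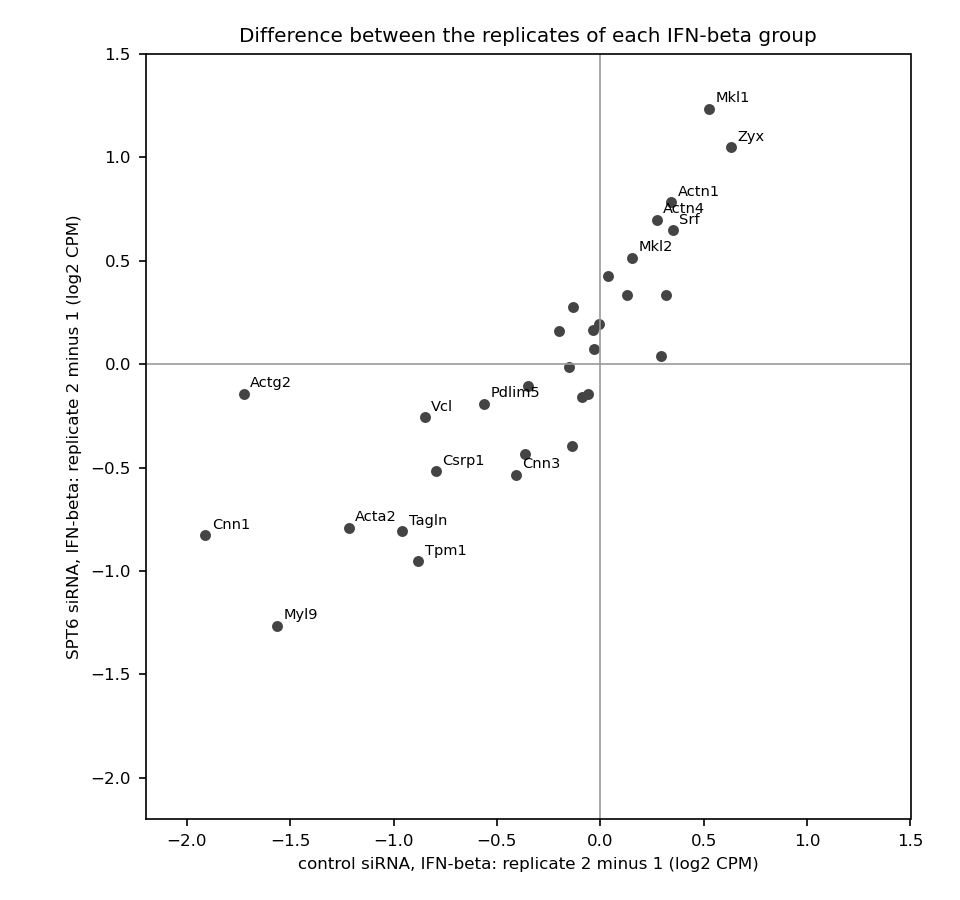
Difference of replicate 2 minus replicate 1 (log2 CPM) for the 31 tested genes, in the IFN-beta libraries with SPT6 siRNA (vertical) and control siRNA (horizontal); each point is a gene. Acta2, Tagln, Tpm1, Myl9 and Cnn1 lie at the lower left and Zyx, Mkl1, Actn1 and Srf at the upper right, so for these genes the replicates differ the same way with both siRNAs.

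Members with and without a CArG box in the window were set side by side. For the 7 tested members with an exact box, the median log2 difference of SPT6 siRNA against control siRNA with IFN-beta was -0.62, and the values ran from -1.35 (Myl9) to -0.10 (Srf). For the 6 with a box 1 base off it was -0.36, running from -1.29 (Acta2) to 0.07 (Myl12a). For the 14 with neither it was -0.42, running from -0.92 (Cnn1) to 0.35 (Mkl2). In the response to IFN-beta with control siRNA the medians were 0.97 with an exact box, 0.48 with a box 1 base off and 0.72 with neither. In the response with SPT6 siRNA they were 0.26, 0.17 and 0.36 in the same order. The ranges of the 3 sets overlapped in each of these comparisons. The 4 members without a window (Actb, Actg2, Tagln and Tgfb1i1) belong to none of these sets. Their medians were further from 0, at -1.01, 1.26 and 0.62 in the same order of comparisons.

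**Figure D5:**
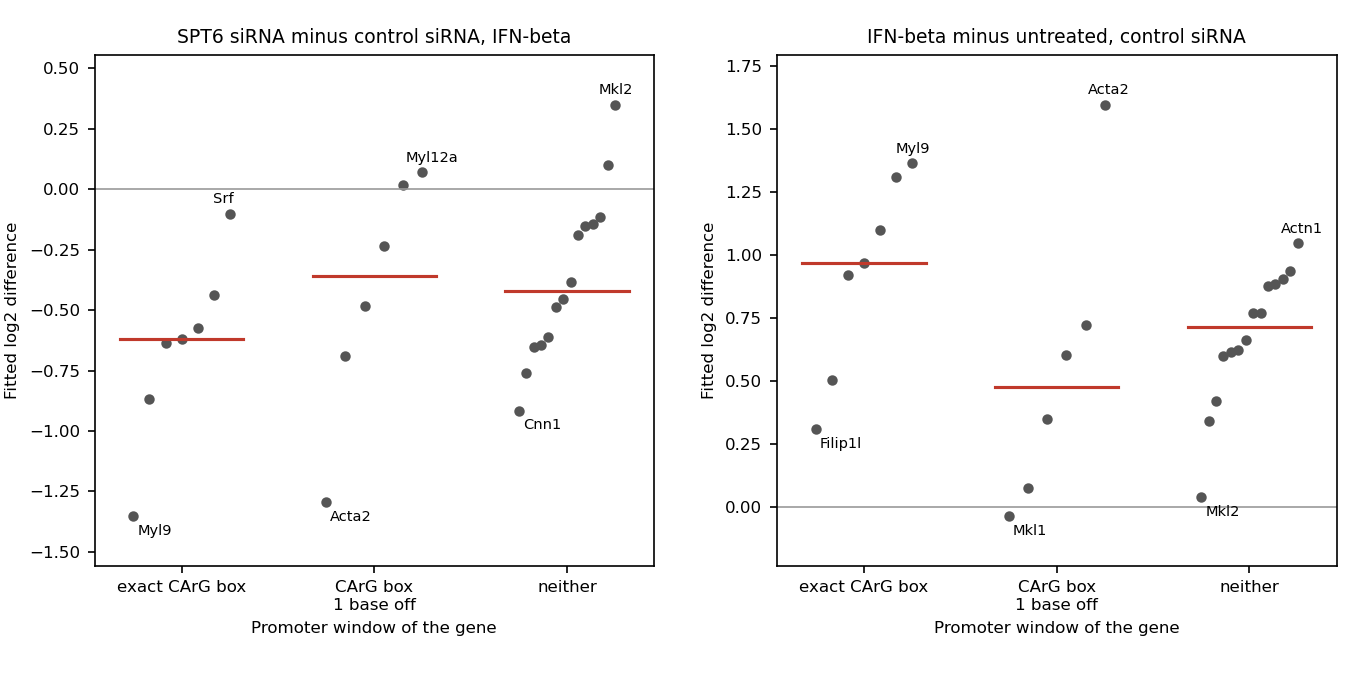
Fitted log2 differences of tested members by promoter window: 7 with an exact CArG box, 6 with a box 1 base off and 14 with neither; left, SPT6 siRNA minus control siRNA with IFN-beta; right, IFN-beta minus untreated with control siRNA. Points are genes and red lines medians. The medians at left are -0.62, -0.36 and -0.42, and the points of the 3 groups overlap. The 4 members without a window are not drawn.

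Among other genes tied to actin and SRF, edgeR called none in any comparison. Among 37 other contractile and actin-binding genes, 30 were below 0 for SPT6 siRNA against control siRNA with IFN-beta (52% of all genes), with a median of -0.27. At an unadjusted p under 0.05 there were 3 lower (4.31% of all genes) and 1 higher (7.36% of all genes). Drebrin (Dbn1) had 47.2 and 51.1 CPM with SPT6 siRNA and 75.4 and 79.9 CPM with control siRNA (-0.66 ± 0.17 SE), and Myh10, another non-muscle myosin heavy chain, had -0.64 ± 0.19 SE. Synpo2, an actin-bundling protein, ran the other way (1.86 ± 0.48 SE), from levels of at most 3.57 CPM. In the response with control siRNA the median of that list was 0.30, led by Wdr1 (0.98 ± 0.23 SE), Actr3 (0.91 ± 0.22 SE) and Coro1c (1.03 ± 0.26 SE), which act in the turnover and branching of filaments. With SPT6 siRNA those 3 stood at 0.50 ± 0.22 SE, 0.53 ± 0.21 SE and 0.53 ± 0.25 SE. Among 26 tested of 28 other focal adhesion and LIM domain genes, 19 were below 0 in the siRNA comparison (52% of all genes), with a median of -0.25. Of these 4 were lower at an unadjusted p under 0.05 (4.31% of all genes), among them Csrp2 (-0.75 ± 0.23 SE), Nexn (-0.75 ± 0.23 SE) and Lims1 (-0.45 ± 0.16 SE). Fermt2, kindlin-2, which activates integrins, stood higher after IFN-beta by 0.82 ± 0.20 SE with SPT6 siRNA and 0.94 ± 0.20 SE with control siRNA.

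The listed SRF targets of ternary complex factors had a median on the other side of 0 from the members, a difference that was not tested. Whether each listed gene, Cyr61 among them, is driven through ternary complex factors in these cells was not tested either. Of 10 tested of 11, 3 were below 0 in the siRNA comparison with IFN-beta (52% of all genes), and 4 were higher at an unadjusted p under 0.05 (7.36% of all genes). The 3 below 0 were Egr1 (-0.26 ± 0.41 SE), Cyr61 (-0.19 ± 0.34 SE) and Egr2 (-0.09 ± 0.31 SE). The median was 0.55, and within a replicate number it was 0.27 in IFN-beta replicate 1 and 0.70 in IFN-beta replicate 2. In the untreated pair, 1 library against 1, the list's median was 0.35, with 4 of the 10 below 0. Nr4a1, an immediate early nuclear receptor, had 46.4 and 68.2 CPM with SPT6 siRNA and IFN-beta and 16.04 and 12.6 CPM with control siRNA and IFN-beta (2.001 ± 0.26 SE, edgeR adjusted p = 0.238). In untreated cells it had 37.9 CPM with SPT6 siRNA and 45.2 CPM with control siRNA. The control IFN-beta libraries were thus the lowest for Nr4a1, where they were the highest for 17 members. Most of the list did not share this, with 8 of the 10 above 0 in the control response and 2 below. Junb had 52.3 and 77.8 CPM with SPT6 siRNA and 38.1 and 37.4 CPM with control siRNA (0.79 ± 0.23 SE). Untreated, Junb already stood at 45.7 CPM with SPT6 siRNA and 23.0 CPM with control siRNA. Fosb had at most 4.35 CPM in any library (1.81 ± 0.70 SE). In the response to IFN-beta the list's median was 1.16 with SPT6 siRNA and 0.95 with control siRNA. Cyr61, a matricellular gene of early growth responses, was at 190 and 356 CPM with IFN-beta and 75.5 CPM untreated with SPT6 siRNA (1.85 ± 0.46 SE). With control siRNA it was at 253 and 370 CPM with IFN-beta and 61.1 CPM untreated (2.35 ± 0.47 SE).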

How the data were processed

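RNA of NIH3T3 cells was sequenced in pairs on a HiSeq2000 from Ovation SP Ultralow libraries, per the labels' protocols. The deposited values were whole-number read counts per gene symbol, not normalised, for 24062 genes in 6 libraries. Builds mm10 and GRCm38 and the tools HTSeq 0.6.1p1, TopHat2 2.1.0 and DESeq2 are listed in the submitters' processing notes. Annotation and strand setting are not given in the sources used here. Lines naming no gene (no feature, 33.8% to 37.5% of all counts, and not uniquely aligned, 27.9% to 31.3%, among them) were kept out.

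Counts were filtered with filterByExpr by group (count minimum 10), scaled with TMM factors and tested in R 4.3.3 with edgeR 4.0.16 (estimateDisp, robust glmQLFit, glmQLFTest) on 4 group means over all 6 libraries, with 2 residual degrees of freedom. Genes were called at a Benjamini-Hochberg adjusted p under 0.05 over all 13185 genes. Each standard error (SE) was taken as the size of the log2 difference divided by the root of its F statistic. Differences between single libraries were taken on log2 CPM after adding a prior count of 2. Exon lengths, positions and overlaps came from GENCODE for GRCm38, which held 98.25% of the symbols. Tested on simulated data for SPT6 siRNA with IFN-beta (12926 genes), the script recovered 42.9% of the 2-fold and 96% of the 4-fold changes. The simulated counts took each gene's spread from a fitted trend and held no replicate difference shared between siRNAs. These shares may therefore not hold for the real libraries, where Nr4a1, at a fitted 4.00-fold, was not called. Replicates differed beyond sampling noise, with a chi-square of 34.7 per degree of freedom for SPT6 siRNA and 39.4 for control siRNA. Alternatives were size factors, library size only, other filters, DESeq2 1.42.0, limma-voom (limma 3.58.1), fits on the compared groups alone, a replicate block, and dropping single IFN-beta libraries. Named genes were Supt6, all members and, from each other list, up to 3 with the smallest p in each comparison. Smtn, Myocd and Egr1 were named after their values were seen. Members and lists were chosen with earlier results of these data known, and lists are described by counts and medians without a test. One further list of regulators is not reported here.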

Additional observations from a re-analysis of the deposited data

How the results depend on the processing

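No member was called under the main test, and limma-voom, size factors, library size only, both other filters, only the groups compared and leaving out any 1 IFN-beta library called none either. The numbers of genes called, 0 for SPT6 siRNA with IFN-beta, 18 for the control response and 6 for the response with SPT6 siRNA, were 66, 77 and 46 without a filter and 62, 204 and 129 with DESeq2. DESeq2 called 1 member in the siRNA comparison and 4 in the control response. For the control response 8 genes were called at a count minimum of 50, 5 with limma-voom, 34 with only the groups compared and 16 to 52 without 1 IFN-beta library. For the response with SPT6 siRNA 12 were called with library size only, 0 with limma-voom, 14 with only the groups compared and 9 to 25 without 1 IFN-beta library. Library size only moved the median of all genes by at most 0.09 on the log2 scale, and 17 in place of 22 members were then below 0 in the untreated pair. The member median for SPT6 siRNA with IFN-beta ran from -0.55 to -0.35 without 1 IFN-beta library, highest without control replicate 1, and for the response with SPT6 siRNA from 0.24 to 0.33. The labels give replicate numbers but no shared culture. Replicate 2 minus replicate 1 was correlated between siRNAs at 0.56 over all genes tested and 0.83 over members, which is a hint from the data and not from the design. With the number as a replicate block, edgeR called 2638 genes and 17 members (all lower) in the siRNA comparison, 957 genes and 19 members (all higher) in the control response, 545 genes and 6 members in the response with SPT6 siRNA and 4 genes for the difference of responses. A block over 3 matched pairs, added after the data were seen, called 3245 genes and 18 members, with a member median of -0.35. It adds the untreated pair, where the member median was -0.07.

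Members near 0 changed sign. With the replicate block or the 3 pairs, Mkl1 was -0.067 and -0.14 in the siRNA comparison, Mkl2 was -0.13 in the control response, and with SPT6 siRNA Cald1 was 0.18, Zyx -0.13, Tln1 -0.041, Fhl2 -0.035 and Mkl1 -0.27. With limma-voom Mkl1 was -0.082 in the siRNA comparison and Tpm1 -0.026 in the response with SPT6 siRNA. With library size only Cald1 was -0.015 and Mkl2 -0.049 in the control response, and Tpm1 -0.017 and Tln1 -0.046 in that with SPT6 siRNA. In the response with SPT6 siRNA Cald1 was 0.0028 with size factors and with DESeq2, 0.0022 at a count minimum of 50 and 0.012 without a filter. Without 1 IFN-beta library, the siRNA comparison ran from -1.61 to 0.40 for Cnn1, -0.35 to 0.43 for Actn1, -0.37 to 0.20 for Pdlim5, -0.74 to 0.49 for Mkl1, -0.54 to 0.15 for Actn4, -0.47 to 0.17 for Srf and -0.018 to 0.14 for Myl12a. The control response ran from -0.70 to 1.31 for Cnn1, -0.13 to 0.25 for Cald1, -0.32 to 0.19 for Mkl1 and -0.038 to 0.11 for Mkl2. With SPT6 siRNA it ran from -0.24 to 0.18 for Cald1, -0.16 to 0.36 for Cnn3, -0.51 to 0.43 for Tpm1, -0.52 to 0.76 for Myl9, -0.26 to 0.81 for Zyx, -0.11 to 0.10 for Tln1, -0.057 to 0.29 for Fhl2 and -0.50 to 0.75 for Mkl1. The difference of responses ran from -0.34 to 0.14 for Cald1, -0.39 to 0.20 for Pdlim5, -0.62 to 1.41 for Cnn1, -0.92 to 0.12 for Zyx, -0.68 to 0.10 for Actn1, -0.67 to 0.025 for Actn4, -0.37 to 0.046 for Tgfb1i1, -0.59 to 0.048 for Srf and -0.47 to 0.76 for Mkl1. Beyond these constructions the cause was not tested. Simulated 2-fold differences were called in 42.9% of cases for the siRNA comparison, so smaller ones are mostly out of reach here.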
